A study of Mus musculus with 3 samples.

Results

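The 10 genes described here belong to the BCL2 family, the proteins that decide at the mitochondrion whether a cell lives or dies by apoptosis. They were taken by name from the 50600 genes of the deposited tables, and all 10 were found there. They are the survival genes Bcl2, Bcl2l1, Mcl1 and Bcl2a1b, the effector genes Bax and Bak1, and the BH3-only genes Bcl2l11, Bbc3, Pmaip1 and Bad. The study profiled mouse T-helper 1 (Th1) cells, helper T cells that express CD4. The labels name the strain C57BL/6NJ, call the material primary cells and link a differentiation protocol for CD4+ T cells. RNA was sequenced in 3 libraries, replicates 1, 2 and 3 of 1 group, with no second genotype, treatment or cell type. The file headers name a time point of 2 hours that the labels do not give, sex was not collected, and age is given as unknown. The 3 libraries have separate biosamples and the same donor entry, and nothing says that they came from separate animals, so p-values between them measure only the spread of these samples, which may be technical.

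Survival proteins of this family hold the effectors Bax and Bak1 in check on the outer mitochondrial membrane. When freed and activated, the effectors open that membrane and release cytochrome c, which starts the caspase cascade. BH3-only proteins tip the balance by binding the survival proteins or the effectors, and in T cells Mcl1, Bcl2 and Bcl2l11 are the best known arbiters of survival.

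Replicates 1, 2 and 3 carried 4442901, 3123869 and 2950658 counts. Levels are given as TPM, the count per exon base scaled to a fixed total in each library, so that genes of different length can be compared. The floor used for a count of 0 is 3 counts, which for a gene of 1 kb corresponds to between 1.37 TPM (replicate 1) and 1.77 TPM (replicate 3), for counting error only. The 6 T cell markers (Cd3e, Cd3d, Trac, Cd5, Lck and Cd2) all exceeded 1 TPM in every library, and Cd4 stood at 106.7 ± 29.3 TPM (SD, n = 3). Of the markers of the Th1 type, the lineage factor Tbx21 had 19, 7 and 11 counts the cytokine gene Ifng 1, 2 and 0 and the chemokine receptor gene Cxcr3 6, 2 and 2. Stat4, which transmits the interleukin-12 signal, had 197, 80 and 88 counts, and the interleukin-12 receptor gene Il12rb2, whose exons are opposed, 79, 117 and 62. Summed levels of the markers of CD8 and NK cells were 11.5 to 24.5 TPM over the libraries, those of B cells 47.3 to 58.3, those of macrophages and neutrophils 5.62 to 8.32 and those of the erythroid lineage 2.09 to 6.62. Among the defining markers Gzmb, Ncr1 and Klrb1c, Cd79b, Ms4a1 and Cd22, Lyz2, S100a8 and S100a9, and Hba-a1 and Hbb-bs had 0 counts in every library. Other markers of those lists did have counts: Cd79a 86, 133 and 83 and Ighm 109, 34 and 44 (B cell), Prf1 78, 27 and 38 and Cd8b1 34, 16 and 10 (CD8 and NK), Cd68 22, 19 and 12 (macrophage), and Alas2, which is opposed, 11, 22 and 27 (erythroid). Their part in the members' levels was not tested. Replicate 1 stood apart: 55.1% of its counts fell on genes whose exons overlap exons of the other strand, against 69.1% and 67.3% in replicates 2 and 3. Such genes are called opposed below, and unopposed genes are those whose whole span overlaps no gene of the other strand. Every level below is that of the strand which the authors' strand setting 1 assigned to the gene. Pairs of a long noncoding RNA and a protein-coding gene with overlapping exons on the other strand were compared. They were kept when the overlap covered at least 0.5 of the noncoding exon bases and both genes together had at least 30 counts. In 234 of 261 such pairs the noncoding gene was higher per exon base (89.7%, exact Clopper-Pearson 95% interval 85.3 to 93.1, pairs taken as independent). If strand setting 1 were opposite to the library, the member counts would be reads of the other strand and not messenger RNA. Whether it is was not tested.

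All 10 members reached 1 TPM in every library, where 21.8% of all 50600 genes and 38.7% of the 21764 protein-coding genes did so. The members were chosen with earlier results of these data known, so that contrast is no test of the family. Of 5 further survival genes 1 did so, and of 5 further effector and BH3-only genes 1. Their mean levels ran from 2.57 TPM for Pmaip1 to 169.6 TPM for Mcl1, with a median of 9.26 TPM. The scale depends on which genes form the total: the median was 22.2 TPM with protein-coding genes alone and 44.9 TPM with unopposed genes alone. At 5 TPM 6 of the 10 members passed in every library. From the highest down, the order was Mcl1, Bcl2a1b, Bax, Bak1, Bcl2l11, Bcl2, Bcl2l1, Bad, Bbc3 and Pmaip1. A neighbour in that order is said to differ when its log2(TPM + 0.1) difference had one sign in all 3 libraries and its mean exceeded its SD. By that measure Mcl1 lay above Bcl2a1b by 1.19 ± 0.48 (log2, SD, n = 3), Bcl2a1b above Bax by 2.10 ± 0.27, Bak1 above Bcl2l11 by 0.45 ± 0.30, Bcl2l11 above Bcl2 by 0.20 ± 0.18 and Bbc3 above Pmaip1 by 0.88 ± 0.57. Bax and Bak1, Bcl2 and Bcl2l1, Bcl2l1 and Bad, and Bad and Bbc3 could not be ordered beyond their spread. The order rests on the exon length used. As CPM, the count scaled by the library total alone, 9 pairs of members swapped places. Bcl2l11 at 42.8 and Bcl2 at 42.7 CPM then stood above Bcl2a1b at 35.5 and Bak1 at 17.1. In these bulk libraries, fewer cells of a type and less RNA per cell cannot be told apart.

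**Figure D1:**
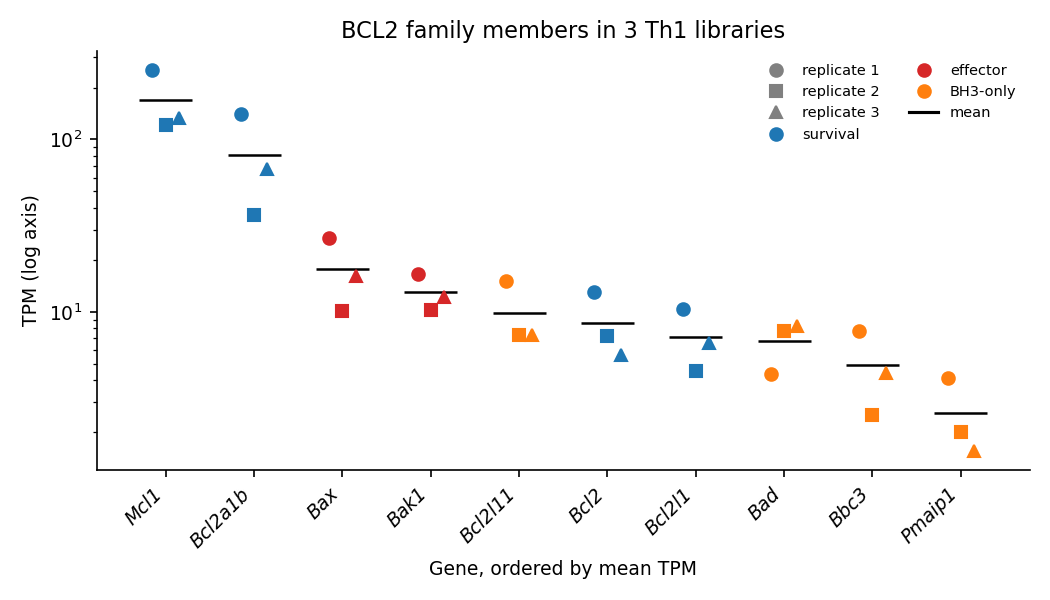
TPM of each member (log axis) in replicates 1, 2 and 3, coloured by role, with genes ordered by mean TPM and the mean drawn as a line. Mcl1 and Bcl2a1b stand above the other 8 members in every library, and Bad alone has its lowest point in replicate 1.

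The survival genes held most of the members' summed TPM. Their summed level was 418, 169.8 and 214 TPM in replicates 1, 2 and 3, against 43.5, 20.3 and 28.3 TPM for the effectors and 31.2, 19.5 and 21.5 TPM for the BH3-only genes. As shares of the 10-gene sum, the survival genes took 82.3% ± 2.19 (SD, n = 3), the effectors 9.76% ± 0.959 and the BH3-only genes 7.95% ± 1.5. Among the survival genes, Mcl1 took a mean of 53.4%, Bcl2a1b 23.9%, Bcl2 2.74% and Bcl2l1 2.25% of that sum. These shares hold for the listed genes only and are not those of the whole family. The BH3-only gene Bid, which is not among them, had a mean of 24.8 TPM, against a mean sum of 24.1 TPM for the listed BH3-only genes. The survival gene Bcl2a1d, also outside the sum, had 33.0 TPM. The sums moved with replicate 1, while the survival share stayed between 81.0% and 84.8%.

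Mcl1, a short-lived survival protein on which lymphocytes depend, was the member of highest level (chromosome 3, 95658788 to 95663176, plus strand, mm10). It had 1896, 779 and 776 counts, or 253, 121 and 134 TPM, in replicates 1, 2 and 3. Replicate 1 was high, and replicates 2 and 3 lay close together. Mcl1 ranked at the 98.6, 98.0 and 97.8 percentile of protein-coding genes by TPM and took 53.4% ± 3.97 of the members' summed TPM (SD, n = 3). The 250 bases before its RefSeq start are shown because it is the highest member (chr3:95658471-95658720, plus strand, GRCm38.p6). They have a GC content of 64.4% and 26 CpG dinucleotides, and capitals mark the 2 matches to the ETS motif CCGGAA.
Mcl1 upstream: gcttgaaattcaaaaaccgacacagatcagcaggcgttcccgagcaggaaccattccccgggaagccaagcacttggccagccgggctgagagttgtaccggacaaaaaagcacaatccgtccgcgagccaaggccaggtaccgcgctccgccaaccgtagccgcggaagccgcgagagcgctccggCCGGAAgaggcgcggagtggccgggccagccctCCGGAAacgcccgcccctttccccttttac
A match is a description of the letters only.

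Bcl2, the founding survival gene of the family, and Bcl2l1, which encodes Bcl-xL, lay far below Mcl1. Bcl2 (chromosome 1, 106538178 to 106714274, minus strand) had 262, 124 and 87 counts, or 13.1, 7.22 and 5.60 TPM, so that replicate 1 was high and replicate 3 lowest. Bcl2l1 (chromosome 2, 152780668 to 152831728, minus strand) had 104, 39 and 51 counts, or 10.4, 4.53 and 6.55 TPM, with replicate 2 lowest. The ranges of both genes overlapped. Per exon base, Mcl1 exceeded Bcl2 19.5-fold (Clopper-Pearson 95% interval 17.8 to 21.6, summed counts) and Bcl2l1 23.9-fold (20.6 to 27.7). In log2 TPM these differences were 4.29 ± 0.25 and 4.55 ± 0.20 (SD, n = 3), with Mcl1 higher in 3 of 3 libraries. The exon length merges all annotated transcripts of a gene, and the intervals do not cover that choice. In CPM, without length, the log2 differences were 2.88 and 4.14.

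Bcl2a1b, one of 4 mouse copies of the gene for the NF-kB-responsive survival protein A1, was the second highest member (chromosome 9, 89199209 to 89207827, plus strand). It had 252, 56 and 94 counts, or 141, 36.5 and 67.8 TPM, with replicate 1 high and replicate 2 low. Its coefficient of variation, 65.5%, was the largest of the 10 members, and its mean of 81.7 ± 53.6 TPM (SD, n = 3) was 52.2 without replicate 1. Bcl2 lay below it in 3 of 3 libraries, with a log2 TPM difference of Bcl2 to Bcl2a1b of -3.11 ± 0.68 (SD, n = 3). Without the correction for length the order turned: in CPM, the count scaled by the library total, Bcl2, whose exons span 9157 bases against 817, was higher by 0.36 in log2.

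The level of Bcl2a1b depends on how its copies are told apart, so their sequences are shown. The bases shortly before the start of 3 copies, from RefSeq (GRCm38.p6), lie at chr9:89199023-89199164 (plus strand) for Bcl2a1b, chr9:88731915-88732050 (minus strand) for Bcl2a1d and chr9:88956714-88956855 (plus strand) for Bcl2a1a. Capitals mark a base that differs from Bcl2a1b. The window of Bcl2a1a was identical to that of Bcl2a1b over 142 bases, and that of Bcl2a1d had 1 substitution and lacked 6 bases.
Bcl2a1b upstream: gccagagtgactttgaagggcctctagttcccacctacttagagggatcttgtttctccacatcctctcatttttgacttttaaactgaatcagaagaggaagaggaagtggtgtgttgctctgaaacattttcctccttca
Bcl2a1d upstream: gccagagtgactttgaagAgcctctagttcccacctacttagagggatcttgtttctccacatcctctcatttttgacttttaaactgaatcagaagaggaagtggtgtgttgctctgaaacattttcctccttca
Bcl2a1a upstream: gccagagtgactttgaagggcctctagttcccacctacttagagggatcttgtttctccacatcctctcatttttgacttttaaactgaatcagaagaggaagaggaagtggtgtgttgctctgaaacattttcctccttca

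The first 150 coding bases of the 4 copies, from the GENCODE vM21 transcripts, begin at the start codon and carry the same marking. They lie at chr9:89199360-89199509 (plus strand), chr9:88731570-88731719 (minus strand), chr9:88957051-88957200 (plus strand) and chr9:114330156-114330305 (plus strand), in the order shown.
Bcl2a1b coding: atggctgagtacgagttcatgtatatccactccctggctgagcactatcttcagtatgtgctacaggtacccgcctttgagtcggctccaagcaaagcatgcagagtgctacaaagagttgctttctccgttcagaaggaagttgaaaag
Bcl2a1d coding: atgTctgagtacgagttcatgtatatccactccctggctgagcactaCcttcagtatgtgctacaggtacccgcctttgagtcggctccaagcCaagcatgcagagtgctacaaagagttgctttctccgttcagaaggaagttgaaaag
Bcl2a1a coding: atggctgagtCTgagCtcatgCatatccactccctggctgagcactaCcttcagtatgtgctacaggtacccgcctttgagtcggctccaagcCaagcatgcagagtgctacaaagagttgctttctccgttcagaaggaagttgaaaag
Bcl2a1c coding: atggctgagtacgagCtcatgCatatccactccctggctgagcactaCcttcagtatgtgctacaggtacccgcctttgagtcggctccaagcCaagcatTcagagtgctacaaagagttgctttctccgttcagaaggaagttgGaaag
Within this stretch Bcl2a1d differed from Bcl2a1b at 3 bases, Bcl2a1a at 6 and Bcl2a1c at 6. Over the whole coding sequence of 519 bases, Bcl2a1d differed from Bcl2a1b at 6 bases (98.8% identity) and Bcl2a1a at 11 (97.9%), while the coding sequence of Bcl2a1c is shorter, at 387 bases.

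Counts were unequal between the copies. Bcl2a1d had 100, 38 and 33 counts in replicates 1, 2 and 3, Bcl2a1a 1, 1 and 0, and Bcl2a1c 1, 0 and 0. Together the 4 copies had 354, 95 and 127 counts, of which Bcl2a1b took 71.2%, 58.9% and 74.0%, and the sum of their own TPM was 115 ± 70.8 (SD, n = 3). Of the 100-base stretches in the Bcl2a1b transcript 31.1% also occurred in Bcl2a1a or Bcl2a1d, as did 54.7% of those of Bcl2a1d and 43.5% of those of Bcl2a1a in other transcripts, so that the split between copies is uncertain. The other 9 members shared no 100-base stretch with a gene elsewhere. Bcl2a1d lies within the span of Gm10634 on the other strand but shares no exon base with it.

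**Figure D2:**
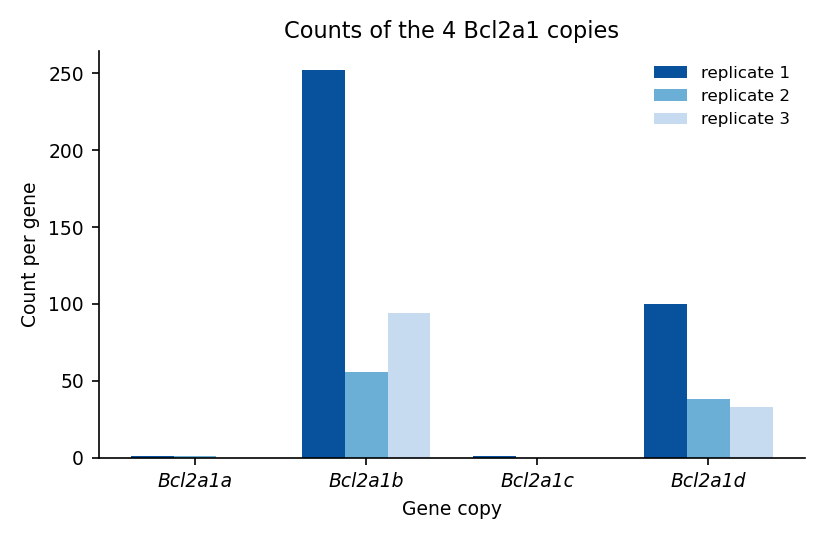
Counts of the 4 Bcl2a1 copies in replicates 1, 2 and 3 (bars from 0). Bcl2a1b and Bcl2a1d carry nearly all counts in each library, and Bcl2a1a and Bcl2a1c have at most 1.

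Another annotated gene covers Bcl2a1b on the same strand. Gm29094 starts at 89199379, inside the coding stretch printed above, and 401 of the 817 exon bases of Bcl2a1b (49.1%) are also exon bases of Gm29094. No option in the headers lets a read pair count for 2 genes, so a pair lying wholly on shared bases counts for neither. Gm29094 itself had 1, 0 and 0 counts. How pairs with only 1 read on shared bases were assigned was not tested, so a level over unshared bases alone may be too high. With only its 416 unshared bases as length, Bcl2a1b came to 272, 70.0 and 130.4 TPM, beside 249, 118 and 131 TPM for Mcl1 computed likewise. Its mean of 157 ± 104 TPM (SD, n = 3) was 1.93 times the level above. The log2 difference of Mcl1 to Bcl2a1b was then -0.13 in replicate 1, 0.76 in replicate 2 and 0.01 in replicate 3. It averaged 0.21 ± 0.48 (SD, n = 3), so that over unshared bases these 2 genes could not be ordered beyond their spread. Among protein-coding genes 6.90% share any exon base with a gene of the same strand, and 2 of the 10 members did. The other was Bax, of whose exons 192 bases (12.2%) also belong to Gm45808, a gene with 0 counts in every library.

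Of the effectors, Bax moves from the cytosol to mitochondria when activated and Bak1 resides there. Bax (chromosome 7, 45461697 to 45466898, minus strand) had 93, 30 and 43 counts, or 27.0, 10.1 and 16.1 TPM. Bak1 (chromosome 17, 27019810 to 27029009, minus strand) had 87, 46 and 50 counts, or 16.5, 10.2 and 12.2 TPM. Replicate 1 was high for both, and their ranges overlapped. Bax was above Bak1 in replicates 1 and 3 and level with it in replicate 2, with a log2 difference of 0.36 ± 0.36 (SD, n = 3). Over unshared exon bases the difference was 0.55 ± 0.36, with Bax higher in 3 of 3 libraries. The survival genes Bcl2 and Bcl2l1 lay below Bax in 3 of 3 libraries, by log2 TPM differences to Bax of -1.01 ± 0.51 and -1.27 ± 0.11. In CPM these 2 differences turned to 1.51 and 0.26, and that of Bax to Bak1 turned to -0.24. Mcl1 exceeded Bak1, which it is known to bind, by 3.64 ± 0.26.

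Among the BH3-only genes, Bcl2l11 encodes Bim, which removes lymphocytes at the end of a response. Bcl2l11 (chromosome 2, 128126038 to 128162547, plus strand) had 264, 110 and 100 counts, or 15.02, 7.30 and 7.34 TPM, high in replicate 1 and alike in the others. Its difference to Mcl1 was the one of smallest SD among the 15 pairs computed, at 4.09 ± 0.07 in log2 TPM (SD, n = 3), or 17.1-fold per exon base (15.5 to 18.9). Bcl2, the other well known partner of Bim, lay 0.20 ± 0.18 below Bcl2l11. That difference rests on exon length: summed counts were 473 for Bcl2 and 474 for Bcl2l11. In CPM the log2 difference of Bcl2 to Bcl2l11 was -0.013.

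Bbc3 and Pmaip1, the p53 targets known as Puma and Noxa, had the lowest mean levels of the members, although Bad was below Bbc3 in replicate 1. Bbc3 (chromosome 7, 16308393 to 16318205, plus strand) had 36, 10 and 16 counts, or 7.74, 2.51 and 4.44 TPM. Pmaip1 (chromosome 18, 66458604 to 66465550, plus strand) had 24, 10 and 7 counts, or 4.14, 2.01 and 1.56 TPM. Replicate 1 was high for both. Bcl2l11 exceeded Bbc3 by 1.05 ± 0.41 and Pmaip1 by 1.94 ± 0.20 in log2 TPM, in 3 of 3 libraries. Pmaip1 acts on Mcl1 and A1, and these survival genes stood above it by 6.03 ± 0.27 (Mcl1) and 4.84 ± 0.65 (Bcl2a1b).

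Bad, a BH3-only protein that growth factor signalling holds inactive by phosphorylation, went against the others. Bad (chromosome 19, 6941861 to 6951898, plus strand) had 19, 29 and 28 counts, or 4.33, 7.70 and 8.22 TPM. Replicate 1 was lowest although it was the deepest library. Bad therefore lay below Bcl2l1, which it binds, in replicate 1 and above it in replicates 2 and 3, with a log2 difference between Bcl2l1 and Bad of 0.06 ± 1.05 (SD, n = 3). Without replicate 1 that difference was -0.54.

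In all, 15 pairs of members were compared, and 12 kept one sign in the 3 libraries. An exact two-sided sign-flip permutation test gave p = 0.25 for each of the 12, the smallest value that 3 libraries allow, and 0.3125 after Benjamini-Hochberg adjustment over the 15. That test therefore cannot reach 0.05 with these libraries.

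TPM was highest in replicate 1 for 9 of the 10 members, where 82.0% of the protein-coding genes kept by the filter on low counts and 91.6% of the unopposed ones had their highest TPM there. The ratio of replicate 1 to the mean of replicates 2 and 3 ran from 1.47 for Bak1 to 2.70 for Bcl2a1b among those 9 and was 0.543 for Bad. Over 4221 unopposed protein-coding genes its median was 1.79, with quartiles at 1.51 and 2.09, and over 2834 opposed protein-coding genes the median was 1.45, with quartiles at 0.995 and 1.82. Of the unopposed members Mcl1 at 1.99, Bcl2l1 at 1.87, Bax at 2.06 and Bcl2l11 at 2.05 lay between the quartiles of the unopposed genes, and Bcl2a1b, Bbc3 at 2.23 and Pmaip1 at 2.32 lay above them. Against the opposed genes, Bcl2 at 2.04 lay above the quartiles, Bak1 between them and Bad below.

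**Figure D3:**
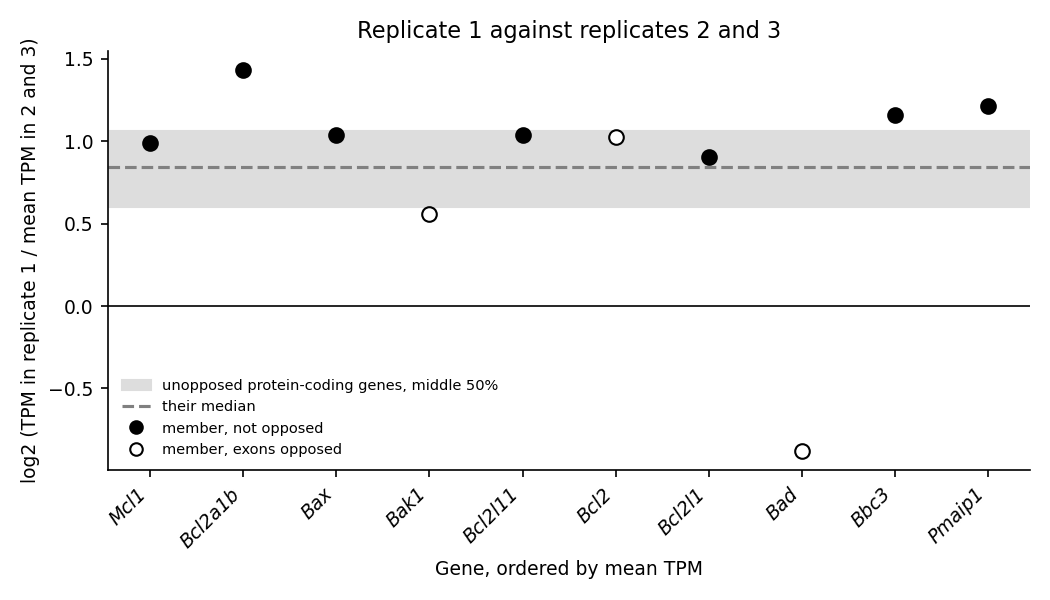
Log2 ratio of TPM in replicate 1 to the mean of replicates 2 and 3 for each member (open circles: opposed exons). The grey band spans the quartiles of unopposed protein-coding genes (0.60 to 1.06), with a dashed median at 0.84, and Bad alone lies below 0.

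The spread between the libraries was tested in 2 ways. Beyond the dispersion trend of edgeR, 24 of 9469 genes (0.253%) varied at an adjusted p of 0.05, and 0 of the 9 members tested did. Pmaip1 did not pass the filter. At an unadjusted p under 0.05 the edgeR test passed 610 genes and 0 of the 9 members, with Bad lowest at 0.075 and Bcl2a1b next at 0.0929. Missing that threshold does not show that the members were alike in the 3 libraries. DESeq2 marked 4 genes as dispersion outliers. The edgeR count was 3 genes without replicate 2 and 7 without replicate 3, again with 0 members.

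Beyond counting noise alone, a chi-square test called 5642 of 9469 genes (59.6%) and 5 of the 9 members, a share close to that background. The adjusted p of this chi-square test over all genes was 2.29e-13 for Mcl1, 4.31e-09 for Bcl2a1b, 0.000671 for Bad, 0.00231 for Bcl2 and 0.0104 for Bcl2l11. After scaling by library size, the library farthest from the rest was replicate 1 for Mcl1 and Bcl2l11, higher there, and for Bad, lower there. Of all genes tested, 12.6% were called with replicate 1 farthest and higher, and 21.2% with replicate 1 farthest and lower. The farthest library was replicate 2 for Bcl2a1b and replicate 3 for Bcl2, both lower. Calls of those 2 kinds made up 10.4% and 5.34% of all genes tested. The remaining called genes, 5.35% and 4.69% of those tested, were farthest and higher in replicates 2 and 3 and included 0 members. Bax at 0.0637, Bcl2l1 at 0.174, Bbc3 at 0.211 and Bak1 at 0.836 in the same chi-square test did not pass. Some of these calls were lost when 1 library was left out. Without replicate 2 all 5 members were still called by the chi-square test, with adjusted p from 4.42e-08 for Mcl1 to 0.015 for Bcl2l11. Over all genes, 4242 of 9469 were called in that fit. Without replicate 1 the count over all genes was 2459 of 9469. Of the members only Bcl2a1b was then still called (chi-square adjusted p = 0.00449), with Bcl2 at 0.0863, Mcl1 at 0.618, Bcl2l11 at 0.839 and Bad at 0.985. Without replicate 3 Mcl1, Bcl2a1b and Bad were still called, the chi-square test gave Bcl2 0.436 and Bcl2l11 0.0739, and it called Bax at 0.0389. That fit called 4651 of 9469 genes. In a fit of unopposed genes only, which leaves out Bcl2, Bak1 and Bad, the chi-square adjusted p was 4.96e-05 for Bcl2a1b, 0.0846 for Mcl1 and 0.489 for Bcl2l11. This unopposed fit called 1536 of 4272 genes.

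Exons of 3 of the 10 members overlapped exons of the other strand, where 22.1% of protein-coding genes do. Bcl2 shares 558 exon bases, 6.09% of its exons, with D630008O14Rik, an antisense RNA gene that had 399, 519 and 376 counts. Bcl2 counts were 0.657, 0.239 and 0.231 of those, so that the antisense gene had more counts in every library, by the wider margin in replicates 2 and 3. Bak1 shares 357 bases (14.8%) with Ggnbp1, a gene named for a gametogenesis factor, which had 613, 706 and 645 counts and 49.8 ± 8.16 TPM (SD, n = 3). Bak1 counts were 0.142, 0.0652 and 0.0775 of those. Bad shares 517 bases (25.8%) with Gpr137, which encodes a membrane protein. Gpr137 had 21, 29 and 24 counts, and Bad counts were 0.905, 1.00 and 1.17 times those. Both genes of that pair were lowest in replicate 1. Levels of Bcl2, Bak1 and Bad are uncertain for this reason, and its part in their pattern over the libraries was not tested. The strand setting, which was not tested either, bears on the levels of all 10 members and not only on those of these genes.

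**Figure D4:**
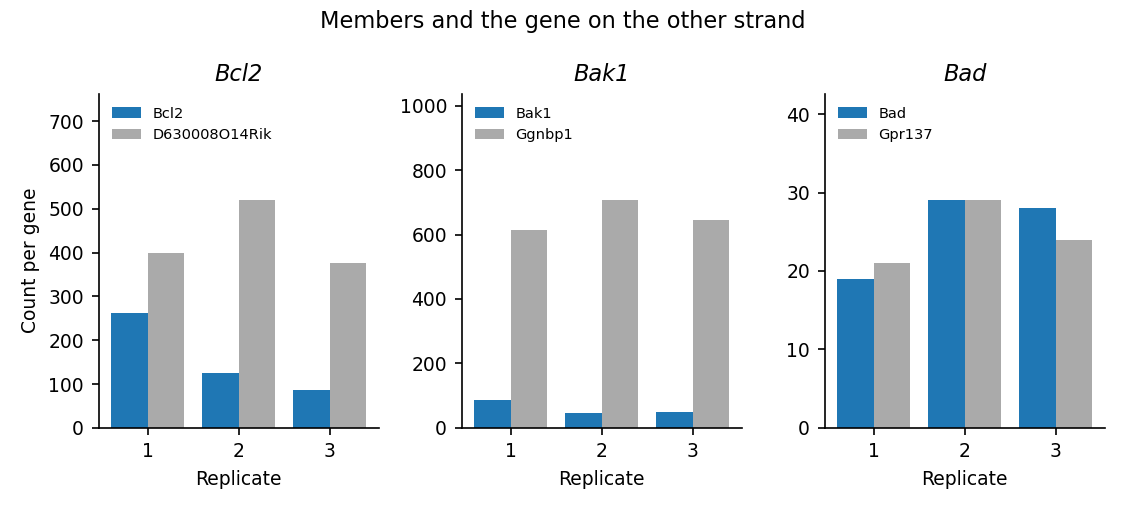
Counts of Bcl2, Bak1 and Bad (blue) and of the gene on the other strand (grey) in replicates 1, 2 and 3, each panel with its own axis from 0. The genes opposite Bcl2 and Bak1 are higher in every library, and Bad and Gpr137 have similar counts.

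Most other genes of the family were at or near the floor. Of 5 further survival genes 1 reached 1 TPM in every library, the copy Bcl2a1d at 33.0 ± 17.3 TPM (SD, n = 3). Bcl2a1a was next at 0.403, and Bcl2l10 had no count. Of 5 further effector and BH3-only genes 1 did so. It was Bid, which links death receptors to mitochondria, with 29.3, 21.0 and 24.1 TPM. Bik was next at 0.646 TPM, and Hrk had no count. Among 7 genes with family names and other functions 5 reached 1 TPM. Bcl2l12 led them at 153, 209 and 175 TPM with opposed exons, followed by Bnip2 at 21.9 ± 11.9, and Bcl2l14 had no count.

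In the list of apoptosome and caspase genes, 5 of 8 reached 1 TPM in every library. The initiator caspase gene Casp8 stood at 49.0 ± 14.9 TPM (SD, n = 3) and Cycs, which encodes cytochrome c, at 46.0 ± 16.1. Of 7 caspase inhibitors and their antagonists 6 did so. Htra2, a mitochondrial protease whose exons are opposed, stood at 337 ± 60.4 TPM and Birc3, which encodes an inhibitor of apoptosis protein, at 46.1 ± 13.8. Birc5, which encodes survivin, had no count in any library. At the floor of 3 counts that count of 0 sets only an upper limit.

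All 9 death receptor and adaptor genes reached 1 TPM in every library, with Fasl, the ligand of Fas, at 23.0 ± 11.4 TPM (SD, n = 3), Cflar, which restrains Casp8, at 21.1 ± 8.33 and the adaptor Fadd lowest at 1.46 ± 0.289. Of 11 known transcriptional regulators of members 10 did so. Myc was highest at 382 ± 144 TPM, the stress factor Atf4 was next at 274 ± 130, and the cell cycle factor E2f1 was lowest at 1.05 ± 0.738. All 10 genes for turnover and partners of members did so, led by Bag1, a chaperone cofactor first found as a Bcl2 binder, at 155 ± 39.3 and the 14-3-3 gene Ywhab at 55.8 ± 30.3, with the membrane channel gene Vdac3 lowest at 3.19 ± 1.70. Over these 8 lists, 47 of 62 genes reached 1 TPM in every library, where 38.7% of protein-coding genes did so. These lists too were chosen with earlier results known. Their median level was 11.5 TPM against 9.26 TPM for the members. Beyond the edgeR dispersion trend 0 of the 45 tested genes varied, against 0.253% of all genes tested. Beyond counting noise 27 of the 45 varied, a share close to the 59.6% of all genes tested.

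Promoters were compared by their letters, over the 300 bases from 250 before to 50 after each RefSeq start, in 32851 windows. Windows were found for 9 of the 10 members. GC content was highest in Bbc3, at 74.7% to 78.0% over its 3 windows, and Bcl2, at 76.0%, and lowest in Bcl2a1b at 46.7%, with a median of 52.7% over all windows. Motifs were searched on both strands, and a gene was counted when any of its windows held the motif, for the 9 members as for all 27025 genes. The GC box GGGCGG was found in 7 members (Bcl2, Mcl1, Bcl2a1b, Bax, Bcl2l11, Bbc3 and Bad) and in 38.2% of all genes. The ETS motif CCGGAA was found in Mcl1, Bcl2l1, Bcl2l11 and Bad and in 16.7% of all genes. Several members had more than 1 window. Counted by window, the GC box was in 10 and the ETS motif in 4 of the members' 15 windows, against 35.7% and 14.9% of all windows. The PU.1 motif GAGGAAG was found in Bcl2, Bcl2a1b, Bak1 and Bad (15.4% of all genes) and CCAAT in Bcl2l11, Bbc3 and Bad (41.1%). The forkhead motif TGTTTAC occurred in Bcl2l11 and Bbc3, known FOXO targets, and in 4.05% of all genes. The E-box CACGTG occurred in Bax and Bbc3 (8.09%), the NF-kB motif in Bcl2l1 and Bbc3 (5.14%) and a p53 half-site in Bax (9.55%). Full p53 sites were not searched for. No member window held TATAAA (15.7% of all genes), TGACGTCA (2.03%) or TTCNNNGAA (9.55%). These motifs were chosen after the levels had been seen.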

How the data were processed

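RNA was measured by sequencing in 3 libraries of 1 group. Per the file headers, the authors aligned read pairs in a stranded paired-end mode and counted them over exons with featureCounts 1.4.6-p4, GENCODE vM13 models on mm10, strand setting 1 and both reads of a pair aligned. What the authors deposited is a raw count for each gene. Total RNA-seq is the labels' name for the assay, and poly(A)+ is in the title of the linked library protocol.

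TPM was computed here from those counts and the exon length in the files. Symbols came from GENCODE vM21, matched by identifier (50376 of 50600 genes, 99.56%), and overlaps from the files' coordinates with bedtools 2.31.1. Spread between libraries was tested in edgeR 4.0.16 under R 4.3.3 (TMM, filterByExpr at a minimum count of 10, 9469 genes), by the deviance at the trended dispersion and by a chi-square test of counting noise, each with 2 degrees of freedom and Benjamini-Hochberg adjustment at 0.05. Both were tested on simulated data, in which the edgeR test missed the smaller changes. DESeq2 1.42.0 was the other tool. Pair differences use log2(TPM + 0.1). Intervals cover counting error only, and reads without molecular identifiers are not independent molecules.

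The members and gene lists were chosen with earlier results of these data known. Named genes are the members, the genes overlapping them on the other strand, the markers, and from each of 8 other lists the 2 highest, the lowest and those with no count. A few genes that this rule names are not reported here. The next gene down in the 2 small family lists, the genes sharing exon bases on the same strand and the promoter motifs were added after the values were seen. Alternatives were other size factors, filters, denominators, pseudocounts and CPM, and leaving out each library. Levels over unshared exon bases and over the Bcl2a1 copies together were added after seeing the data.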

Additional observations from a re-analysis of the deposited data

How the results depend on the processing

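The count beyond the edgeR dispersion trend went from 24 to 44 with no filter beyond 1 count and to 55 with unopposed genes only. DESeq2 marked 4 dispersion outliers. Leaving out 1 library gave 3 to 20 genes, with 3 without replicate 2 and 7 without replicate 3. The count beyond counting noise went from 5642 to 1536 with unopposed genes only, and to 2459 to 4651 with 1 library left out, lowest without replicate 1. Fewer genes or libraries entered those fits. The members' median of 9.26 TPM became 22.2 when protein-coding genes alone formed the total, 44.9 with unopposed genes alone and 17.4 as CPM, and stayed within 7.64 to 10.7 with 1 library left out. Those totals shifted every gene, by 0.98, 1.62 and 1.35 (protein-coding) and by 1.83, 2.74 and 2.50 (unopposed) in log2 in replicates 1, 2 and 3. At 5 TPM in place of 1 TPM, 6 members and 7231 genes, against 11014, passed in every library.

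As CPM, which leaves out length, 4 of the 15 log2 ratios reversed. They were Bcl2 to Bcl2a1b at 0.36, Bax to Bak1 at -0.24, Bcl2 to Bax at 1.51 and Bcl2l1 to Bax at 0.26. In the whole order 9 pairs swapped places, with Bak1 and Bcl2l11 among them. Without replicate 1, Bcl2l1 to Bad reversed to -0.54, against 0.24 to 0.46 with another library left out, and the cause was not tested. The signs of all 15 mean differences, which do not include Mcl1 to Bcl2a1b, were kept under both other pseudocounts, both totals and unshared exon bases. Mcl1 was first and Pmaip1 last by mean level in all 8 orders computed. No paired analysis was possible because the libraries form 1 group. Counts of 7 to 24 for Pmaip1, 10 to 36 for Bbc3 and 19 to 29 for Bad limit what can be said of these genes.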

Other observations

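Exon bases shared on the same strand, where pairs lying wholly on them count for neither gene, are not particular to the Bcl2a1b locus in these gene models. At least 0.25 of the exon bases were shared with a same-strand gene in 490 of 21764 protein-coding genes (2.25%). For such genes a level per full exon length counts bases on which some pairs were not assigned.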
